A study of Mus musculus with 2 samples.

Results

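Elastic fibers and microfibrils were followed through 9 genes, *Eln*, *Fbn1*, *Fbln1*, *Fbln2*, *Fbln5*, *Efemp2*, *Mfap4*, *Mfap5* and *Emilin1*, out of 19465 genes in the deposited counts. The members were chosen by name as elastic fiber and microfibril genes, with earlier results of these data known. All 9 were found in both count matrices. Transcripts were measured by Visium on formalin-fixed, paraffin-embedded sections, where pairs of probes ligated on a transcript are captured by barcoded spots and each molecule is counted once through its unique molecular identifier (UMI). The spots are 55 μm wide and 100 μm apart, so that a spot covers a small piece of tissue with several cells. Because a probe set differs from gene to gene in number and affinity, levels are compared here only within a gene, never between genes.

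The samples were 2 femoral sections, 1 from a Control mouse and 1 from a Loaded mouse. Both mice were female bone cell reporter (BCR) animals, which carry eGFP at *Ibsp* and mCherry at *Acp5*, and both received a mid-diaphyseal osteotomy of the right femur under an external fixator at 12 weeks of age. From week 3 to week 5 after surgery the Loaded mouse received cyclic loading through the fixator (3000 cycles at 10 Hz with a force between 8 and 16 N, 3 times per week) and the Control mouse received 0 N sham-loading, and tissue was taken 10 hours after the last session at 17 weeks of age. With 1 section per group there is no replicate, so no test was run between the groups. All intervals given are exact 95% intervals that cover counting error only and hold nothing of the variation between mice. The share of all genes with an interval off 0 was not computed for any comparison, so counts of such intervals have no background.

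Elastic fibers give tissue its recoil. They have a core of cross-linked elastin laid down on a sheath of fibrillin microfibrils, and fibulins, emilins and microfibril-associated proteins sit on that scaffold and take part in the deposition of elastin. These genes are best known from vessel walls, tendon, fascia and the periosteum, while fibrillin microfibrils are also present in bone matrix, where they hold latent TGF-β.

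Each section was divided into 3 regions. The bone region consisted of the spots that the study itself assigned to bone at the fracture site, between the middle pins of the fixator. It held 131 spots in Control with 557259 UMIs and 146 in Loaded with 409020 UMIs. Bone beyond these pins is not in this region, so the remaining spots can hold bone. Outside bone and distance from bone refer to this region throughout. The rim was defined as the spots outside bone whose centers lay within 0.25 mm of a bone spot, 253 in Control and 264 in Loaded. The remaining spots under tissue numbered 1514 in Control and 1021 in Loaded after 64 and 5 spots of low depth had been left out of the sections (1 of these from the Loaded rim). As a check of the bone label, 8 osteoblast genes were at 2.01% of the UMIs in Control bone against 0.676% in the remaining spots, and at 6.5% against 0.738% in Loaded. This list includes *Col1a1* and *Col1a2*. With 98154 UMIs, *Col1a2* alone held most of the UMIs of the list, so its share is largely a type I collagen share. The 4 osteocyte genes were higher in bone in Loaded alone (0.0797% against 0.00732%), and in Control they were at 0.00933% in bone and 0.0115% in the remaining spots. The bone spots also carried transcripts of neighboring tissue, since 22 skeletal muscle genes made up 16.5% of Control bone UMIs and 8.75% of Loaded bone UMIs.

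A level is the sum of UMIs of a gene in a region divided by the summed scran size factors of its spots, given as normalized counts per spot. Each region was further cut into 4 blocks, with each cortex cut once across the shaft, to show how evenly a value held within a section. In these sums, fewer cells of a type and less RNA per cell cannot be told apart. The map of the summed levels shows both sections with their bone spots.

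**Figure D1:**
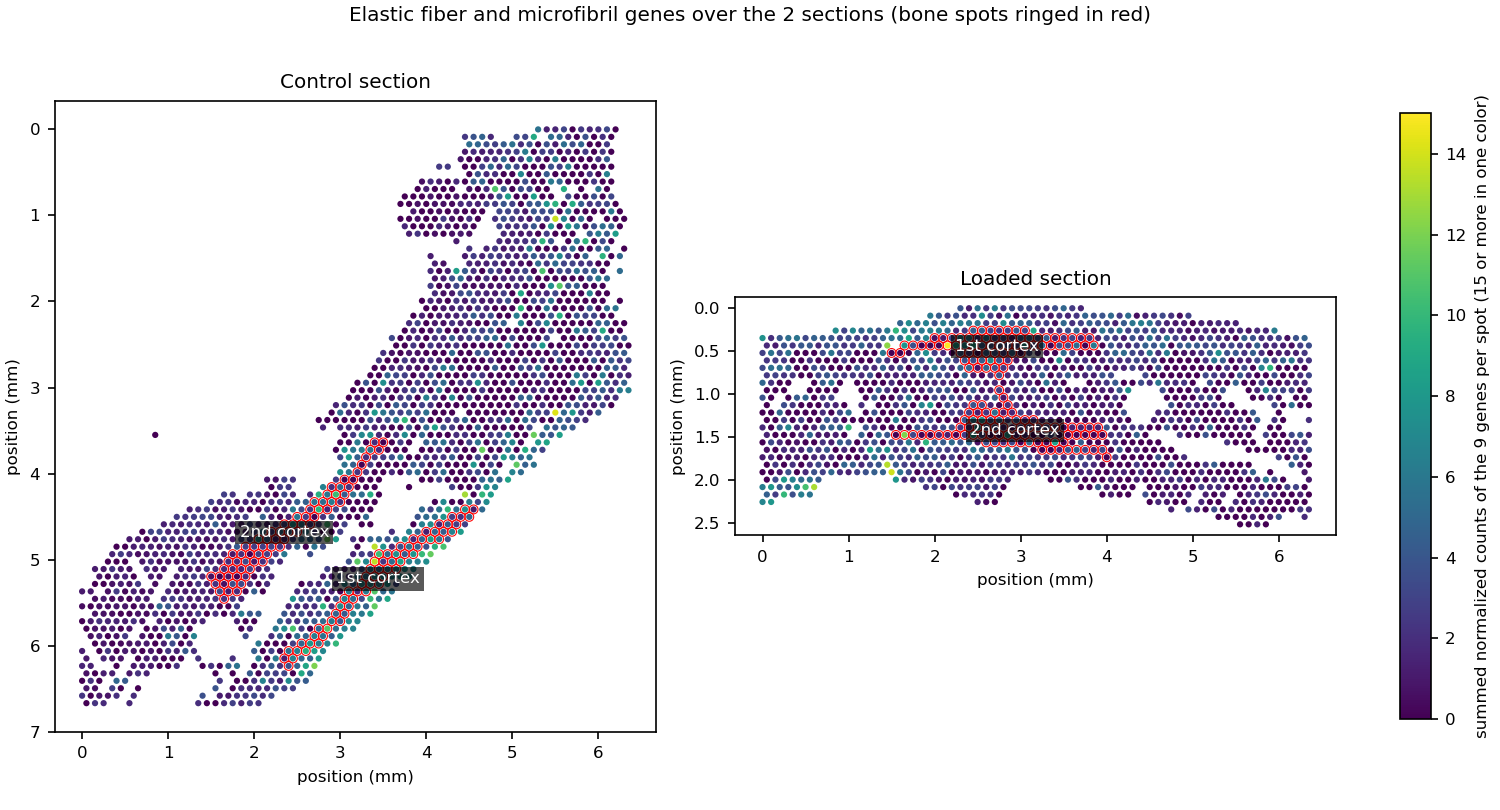
Each point is a spot at its position in mm, colored by the summed normalized counts of the 9 genes, with bone spots ringed in red and the cortices of each section numbered separately. In the Control section, bright spots follow the first cortex (5.76 normalized counts per bone spot) and few lie along the second (2.28), whereas the cortices of the Loaded section stand at 3.40 and 2.51.

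Promoter sequences from RefSeq (GRCm38.p6) were available for 6 of the 9 genes, each covering 250 bases before and 50 bases after a transcription start. The promoters of *Fbn1* and *Emilin1* are printed because these genes went opposite ways between the whole bone regions. Against the second Control cortex alone, both log2 ratios of Loaded over Control bone were above 0, at 0.80 (-0.21 to 1.92) and 1.23 (0.52 to 2.01). Matches on either strand to any of 4 motifs are in capitals, namely the TATA box (TATAAA), the GC box (GGGCGG), the core of TEAD sites (CATTCC) and the AP-1 site (TGACTCA), none of which overlaps another in these windows. The *Fbn1* window is chr2:125506389-125506688 on the minus strand and the *Emilin1* window is chr5:30913536-30913835 on the plus strand.
Fbn1: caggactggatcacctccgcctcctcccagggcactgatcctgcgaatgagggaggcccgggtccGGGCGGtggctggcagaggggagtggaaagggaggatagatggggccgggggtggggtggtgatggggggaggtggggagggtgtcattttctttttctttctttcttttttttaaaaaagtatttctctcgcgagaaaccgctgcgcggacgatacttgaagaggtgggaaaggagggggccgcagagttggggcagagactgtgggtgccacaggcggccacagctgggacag
Emilin1: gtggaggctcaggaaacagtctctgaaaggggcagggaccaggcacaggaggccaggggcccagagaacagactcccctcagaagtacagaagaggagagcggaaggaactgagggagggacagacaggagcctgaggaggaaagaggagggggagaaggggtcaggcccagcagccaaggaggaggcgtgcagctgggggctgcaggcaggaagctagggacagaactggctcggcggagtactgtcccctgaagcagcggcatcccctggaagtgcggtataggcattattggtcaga
The *Fbn1* window held 1 GC box and the *Emilin1* window held none of the 4 motifs. Among the others, *Fbln2*, *Fbln5* and *Efemp2* held 2 GC boxes each and *Fbln1* held 0. None of the 6 windows held a TATA box, a TEAD core or an AP-1 site. Of 32851 promoter windows of the same length, 35.7% held a GC box, 13.6% a TATA box, 14.7% a TEAD core and 5.20% an AP-1 site, and the letters alone say nothing of which factors bind.

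The first question was where in each section these genes were counted. In the Control section, all 9 genes had a higher level in bone than in the remaining spots, 6 of them at least 2-fold, with a median log2 ratio of 1.52 against -0.06 for all 14033 genes with at least 10 UMIs. Of all these genes, 46.8% were higher in Control bone and 12.7% were at least 2-fold higher. In the Loaded section, 8 of 9 were higher in bone, as were 55.2% of all genes, but only 1 at least 2-fold (background 9.84%). The median was 0.23 against 0.09 for all genes. The rim gave the same counts, with 6 members at least 2-fold above the remaining spots in Control (median 1.44, background 9.57%) and 1 in Loaded (median 0.49, background 4.63%). The genes were not all the same, since the Loaded member was *Emilin1* in bone (1.40) and *Fbn1* in the rim (1.02). *Mfap4* stood at -0.34 in Loaded bone and 0.49 in the Loaded rim. Intervals above 0 in Loaded numbered 2 in bone and 5 in the rim, without an all-gene share to read them against. The median of all genes moved with the scaling by up to 0.62 (bone over remaining, Control, library totals), and under each of the 5 alternative scalings or weightings tried the members' medians in these 4 comparisons stayed above 0. With only spots of a muscle share below 5%, the Loaded rim median was -0.08.

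*Eln*, at chr5:134702593-134747323, encodes tropoelastin, the soluble precursor of the elastic core. In Control its level was 0.663 normalized counts per spot in bone (115 UMIs), 0.625 in the rim (183 UMIs) and 0.231 in the remaining spots (345 UMIs). In Loaded the levels were 0.519 in bone (67 UMIs), 0.527 in the rim (167 UMIs) and 0.453 in the remaining spots (417 UMIs). *Eln* was thus 1.52 log2 units higher in bone than in the remaining spots of Control (interval 1.21 to 1.83), and the same ratio was 0.20 in Loaded, where the interval of -0.20 to 0.57 includes 0. Loaded bone was 0.35 log2 units below Control bone with an interval of -0.81 to 0.09, so that a difference in bone was not resolved at this depth. In the remaining spots, *Eln* was 0.97 higher in Loaded (0.76 to 1.18). A single Loaded spot, 1.13 mm from bone, held 36 *Eln* UMIs, and without this spot the ratio was 0.85. That spot also held 316 UMIs of smooth muscle genes, 3.57% of all its UMIs. With only spots of a muscle share below 5%, the ratio in the remaining spots was 0.10. In spots outside bone with at least 10% of UMIs from skeletal muscle genes, *Eln* stood at 0.507 in Loaded and 0.198 in Control. In all other spots outside bone it stood at 0.412 and 0.580. Skeletal muscle genes made up 21.3% of UMIs in the remaining spots of Loaded and 32.1% in Control. Their part in the *Eln* difference was not tested.

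*Fbn1*, at chr2:125300594-125507993, encodes fibrillin-1, the main building block of microfibrils. Its Control levels were 0.472 in bone (82 UMIs), 0.488 in the rim (143 UMIs) and 0.112 in the remaining spots (168 UMIs). Its Loaded levels were 0.271 (35 UMIs), 0.350 (111 UMIs) and 0.173 (159 UMIs), respectively. Bone and rim did not differ beyond their intervals in either section, and both were above the remaining spots. Between the sections, *Fbn1* was lower in Loaded bone by a log2 ratio of -0.80 (-1.42 to -0.21) and in the Loaded rim by -0.48 (-0.85 to -0.11), and higher in the remaining spots by 0.62 (0.30 to 0.94).

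*Mfap4* and *Mfap5* encode microfibril-associated glycoproteins that bind fibrillin and elastin, and they had the largest bone over remaining ratios of the 9 genes in Control (2.48 and 2.29 on the log2 scale). *Mfap4* (chr11:61485431-61488900) had Control levels of 0.599 in bone (104 UMIs), 0.560 in the rim (164 UMIs) and 0.108 in the remaining spots (161 UMIs). Its Loaded levels were 0.170 in bone (22 UMIs), 0.303 in the rim (96 UMIs) and 0.215 in the remaining spots (198 UMIs), so that bone was the lowest of the 3 regions there, although with overlapping intervals between bone and the remaining spots. Loaded bone was below Control bone by a log2 ratio of -1.81 (-2.55 to -1.14), and the Loaded rim was below the Control rim by -0.89 (-1.27 to -0.52). *Mfap5* (chr6:122505845-122529290) stood at 0.668 in Control bone (116 UMIs), 0.523 in the rim (153 UMIs) and 0.136 in the remaining spots (204 UMIs). In Loaded it stood at 0.310 (40 UMIs), 0.309 (98 UMIs) and 0.246 (227 UMIs), giving log2 ratios of Loaded over Control of -1.11 in bone (-1.67 to -0.58), -0.76 in the rim (-1.14 to -0.38) and 0.85 in the remaining spots (0.57 to 1.13). In Control both genes stood far above the remaining spots in bone and rim. In Loaded, *Mfap5* differed little between the 3 regions, and *Mfap4* was higher in the rim than in the remaining spots by 0.49 (0.13 to 0.85).

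The fibulins link elastin to the microfibril scaffold. *Fbln1* (chr15:85205949-85286535), which is found within the elastic core, had Control levels of 0.288 in bone (50 UMIs), 0.208 in the rim (61 UMIs) and 0.0602 in the remaining spots (90 UMIs), and Loaded levels of 0.0930 (12 UMIs), 0.0915 (29 UMIs) and 0.0793 (73 UMIs). The Loaded over Control ratio in bone was -1.63 on the log2 scale (-2.68 to -0.70), but 41 of the 50 Control bone UMIs lay in 1 block, and without that block the ratio was 0.15. *Fbln2* (chr6:91212455-91272540), a fibulin of basement membranes and vessel walls, was highest in the rim of both sections, at 1.33 normalized counts per spot in Control (388 UMIs) and 0.943 in Loaded (299 UMIs). Its bone levels were 0.991 (172 UMIs) and 0.697 (90 UMIs), and its remaining levels 0.599 (896 UMIs) and 0.665 (612 UMIs), and in both bone and rim the Loaded value was lower by a log2 ratio of about the same size (-0.51 and -0.49, both intervals below 0).

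*Fbln5* (chr12:101746565-101819055) and *Efemp2* (chr19:5473954-5482517, fibulin-4) are both needed for elastic fiber assembly and recruit lysyl oxidases to elastin. *Fbln5* had 30 UMIs in Control bone and 12 in Loaded bone, levels of 0.173 and 0.0930, with a log2 ratio of -0.89 whose interval (-2.00 to 0.11) includes 0. Its rim levels of 0.154 and 0.155 were nearly equal between the sections, and its remaining levels were 0.0776 and 0.0901. *Efemp2* had 27 and 23 UMIs in bone, levels of 0.156 and 0.178, rim levels of 0.130 and 0.139 and remaining levels of 0.102 and 0.118. Its Loaded over Control ratios were 0.20 in bone (-0.67 to 1.05), 0.10 in the rim and 0.22 in the remaining spots, each with an interval that includes 0.

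*Emilin1* (chr5:30913402-30921277), an elastin microfibril interface protein that also binds pro-TGF-β1, went the other way. Its Control levels were 0.334 in bone (58 UMIs), 0.420 in the rim (123 UMIs) and 0.285 in the remaining spots (426 UMIs), and its Loaded levels were 0.666 (86 UMIs), 0.378 (120 UMIs) and 0.253 (233 UMIs). Loaded bone was above Control bone by a log2 ratio of 1.00 (0.50 to 1.50), a 1.99-fold difference. In the rim and in the remaining spots the Loaded values were slightly lower, by -0.15 and -0.17, with intervals that include 0. Within the Loaded section, all 4 bone blocks (0.466 to 0.820) lay above all 4 remaining blocks (0.210 to 0.358), a separation that 4.63% of all genes tested also showed. No other member had separate blocks there, and none did in Control, where 0.877% of genes did. The osteoblast marker share also differed between the bone regions (2.01% in Control, 6.5% in Loaded), and its part in the *Emilin1* difference was not tested.

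**Figure D2:**
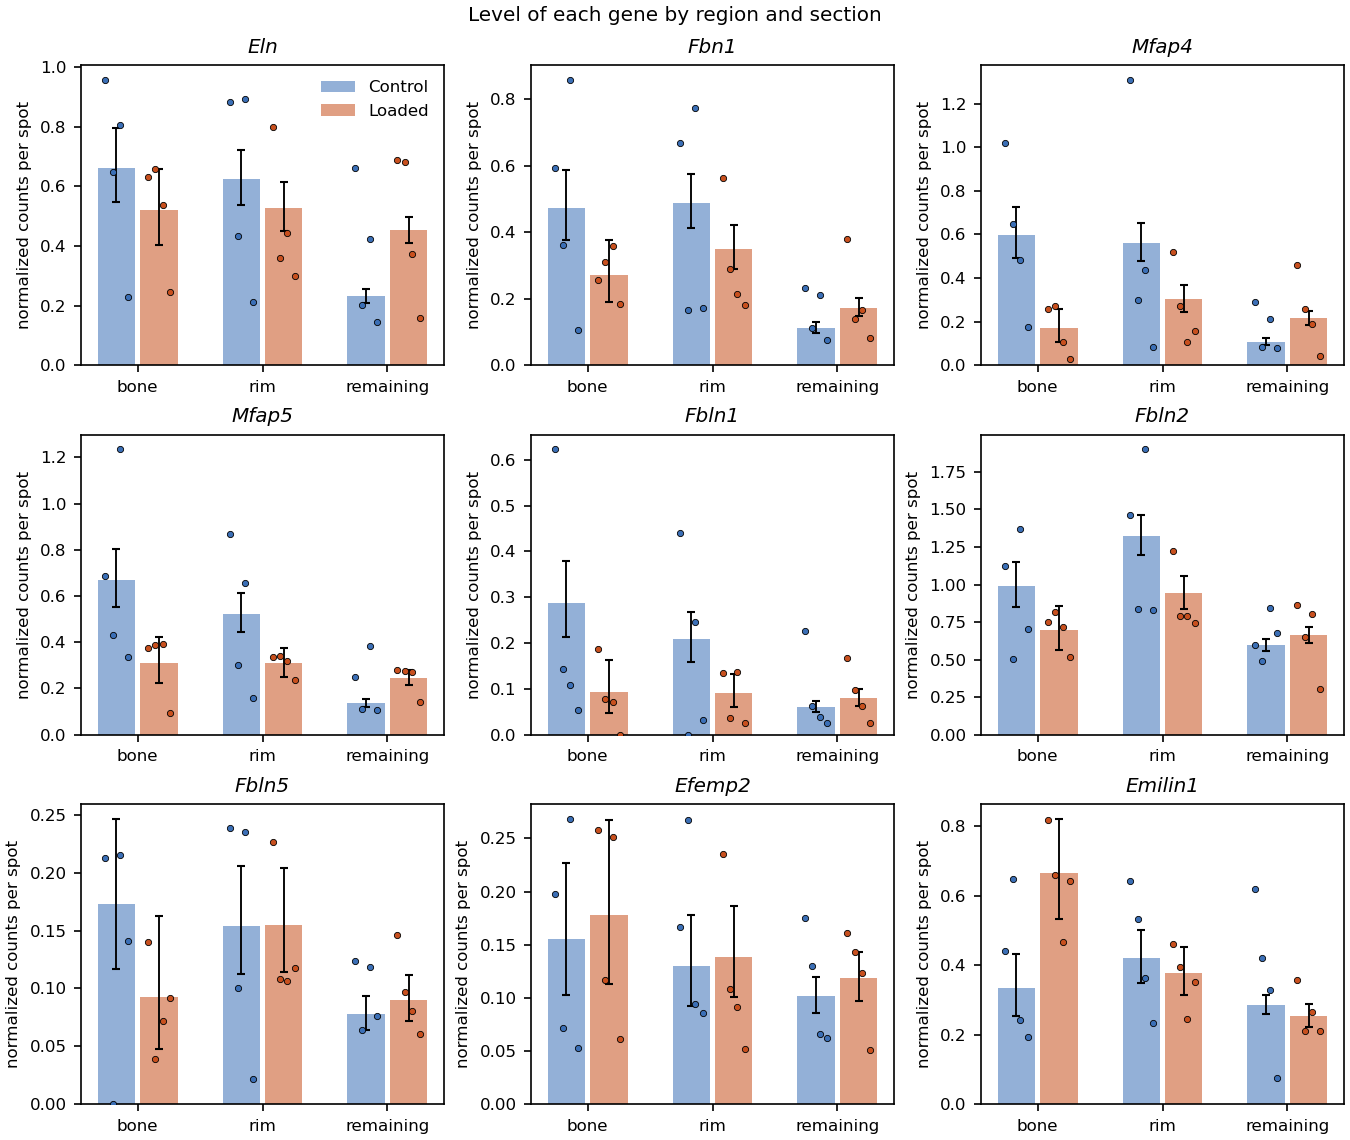
Bars show the normalized counts per spot of each gene in bone, rim and remaining spots of the Control (blue) and Loaded (orange) section, with exact 95% counting intervals, and points show the 4 blocks of each region. The Control bars of *Eln*, *Fbn1*, *Mfap4* and *Mfap5* drop from bone and rim to the remaining spots, the Loaded bars are flatter, and *Emilin1* is highest in Loaded bone (0.666).

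The second question was how the Loaded section compared with the Control section in each region. In bone, 3 of 9 members (*Fbln1*, *Mfap4* and *Mfap5*) were at least 2-fold lower in Loaded, where 8.11% of 10003 genes were, and 0 were at least 2-fold higher, where 13.2% of genes were. The intervals of 5 members lay below 0 and that of *Emilin1* above 0. No all-gene share of intervals off 0 was computed in any region, so counts of intervals here have no background. The members' median was -0.80 against 0.12 for all genes. No member had all Loaded blocks below all Control blocks, as 1.97% of genes had. In the rim, 1 member (*Fbln1*) was at least 2-fold lower (background 6.58%) and 0 higher (background 7.42%), with a median of -0.48 against 0.00. In the remaining spots, 0 members were past 2-fold in either direction (backgrounds 5.6% lower and 6.78% higher), with a median of 0.40 against 0.04, and 4 members (*Eln*, *Fbn1*, *Mfap4* and *Mfap5*) had intervals above 0. *Fbn1*, *Mfap4* and *Mfap5* thus had opposite signs close to bone and in the rest of the section, with all intervals off 0. For *Fbn1* the value in the remaining spots was below 0 in 2 of 19 settings, with spots of a muscle share below 5% (-0.42) and with every spot weighted equally. With those low-muscle spots, *Eln* was at 0.10, *Mfap5* at 0.17 and the members' median at 0.10.

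**Figure D3:**
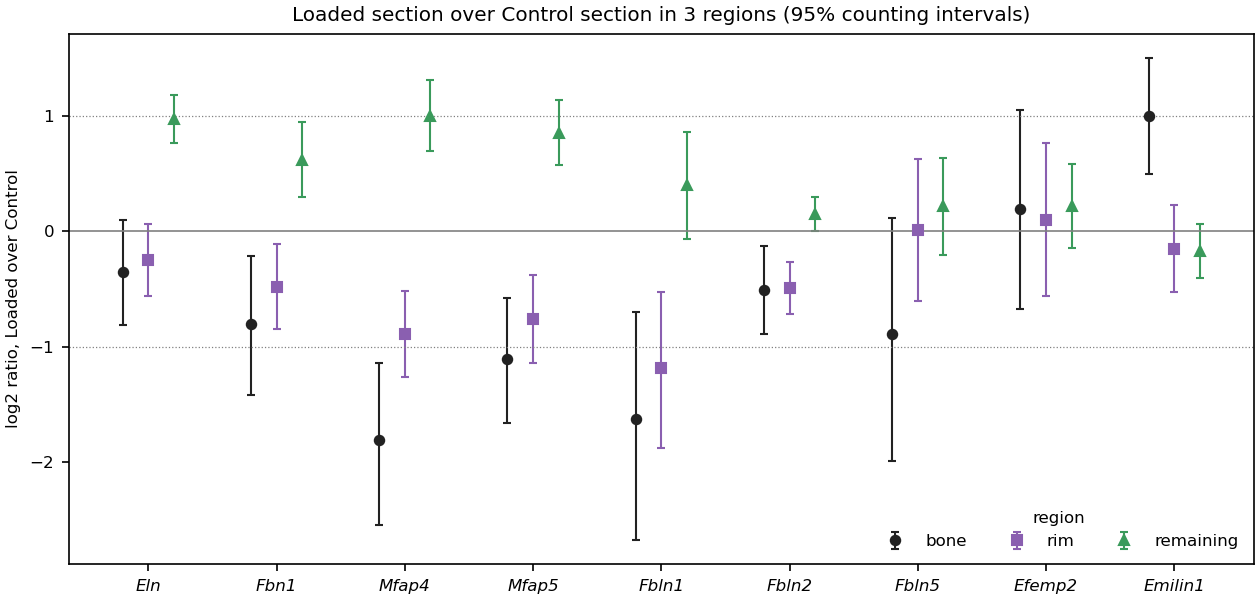
Points give the log2 ratio of the Loaded over the Control section for each gene in bone (circles), rim (squares) and remaining spots (triangles), with exact 95% counting intervals and dotted lines at 2-fold. *Mfap4* spans the widest range, from -1.81 in bone to 1.00 in the remaining spots, and *Emilin1* alone is higher in Loaded bone with an interval off 0.

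Several marker lists differed between the bone regions in the same direction as the members. Of 8 tendon genes (with *Kera* at 0 in Control bone), the summed share was 0.355% of UMIs in Control bone, between 0.0615% and 0.808% over its blocks, and 0.167% in Loaded bone, between 0.142% and 0.211%. The 8 fibroblast genes were at 0.296% and 0.183%, with blocks from 0.168% to 0.453% and from 0.151% to 0.207%, and the 8 Schwann cell and nerve genes were at 0.0845% and 0.0298%. Smooth muscle genes were at 0.0698% and 0.0533% in bone, and at 0.0492% and 0.0989% in the remaining spots, where *Eln* was higher in Loaded. Other lists were higher in Loaded bone, with endothelium at 0.0531% and 0.0577%, macrophage at 0.0781% and 0.0853% and adipocyte at 0.0388% and 0.0560%. The same held for the osteoblast, osteocyte, osteoclast, chondrocyte, granulocyte, erythroid and plasma cell lists. The part of these tissues in the members' differences was not tested.

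The Control values near bone rested on 1 side of the shaft. The cortex numbered first in the map held 62 of the 131 Control bone spots but 593 of the 754 UMIs of the 9 genes there. All 9 members had a higher level in the first cortex, 6 of them at least 2-fold, as were 16.9% of 8046 genes, and 7 with an interval above 0. The members' median log2 ratio of the first over the second cortex was 1.53 against 0.04 for all genes. *Mfap4* stood at 0.825 normalized counts per spot in the first and 0.269 in the second cortex, *Fbn1* at 0.689 and 0.156, *Eln* at 0.903 and 0.312, and *Fbln1* at 0.437 and 0.0709. In the rim on the same sides, *Mfap4* stood at 0.869 and 0.137, a log2 ratio of 2.66 (1.93 to 3.48), and *Fbln1* at 0.343 and 0.0243 (58 and 3 UMIs). All-gene values by side were not computed for the rim of either section. *Emilin1* was the most even member in bone, at 0.369 and 0.283, with a log2 ratio of 0.38 whose interval includes 0.

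The 2 sides also differed in tissue. Skeletal muscle genes made up 6.75% of UMIs in the first and 26.7% in the second Control cortex, tendon genes 0.618% and 0.0823%, fibroblast genes 0.416% and 0.171%, nerve genes 0.137% and 0.0304% and osteoblast genes 3.15% and 0.817%. In Loaded bone the sides were more alike, with muscle at 6.70% and 11.0% and tendon at 0.163% and 0.172%. All 9 members were again higher in the cortex numbered first there, but 2 at least 2-fold (*Fbln1* with 10 and 2 UMIs, *Efemp2* with 18 and 5 UMIs), against a background of 7% of all genes. The median log2 ratio of the members was 0.54 there, with 1 interval above 0, and -0.05 for all genes. In the Loaded rim all 9 were also higher on the first side, with a median of 0.87 and 6 intervals above 0, but without all-gene values to read them against. Fibroblast genes there were at 0.303% on the first side and 0.161% on the second. Nothing in the labels matches a cortex of one section to a cortex of the other.

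The direction of the comparison between sections therefore depended on which Control cortex was used. Against the first Control cortex alone, the median log2 ratio of Loaded over Control bone was -1.20, with 8 of 9 members lower and 5 of them at least 2-fold, as were 8.61% of all genes. Against the second alone it was 0.39, with 3 of 9 lower and 0 at least 2-fold lower, where 10.5% of all genes were. The median of all genes was 0.18 and 0.23 in these comparisons. Against the second cortex 2 members were at least 2-fold higher (*Efemp2* at 1.65 and *Emilin1* at 1.23), and 3 intervals lay above 0. The share of all genes at least 2-fold higher was not computed there. *Fbn1* in bone was at -1.35 against the first cortex and at 0.80 against the second, where its interval of -0.21 to 1.92 includes 0. In the rim the same choice gave medians of -0.84 and 0.98, and *Fbn1* stood at -1.04 and 1.04. Against the first cortex 4 members were at least 2-fold lower in the rim, and against the second 4 were at least 2-fold higher. All-gene values were not computed for these rim comparisons. *Emilin1* was the only member higher in Loaded bone against either Control cortex with both intervals above 0, at 0.85 (0.29 to 1.44) and 1.23 (0.52 to 2.01). *Mfap4*, *Mfap5* and *Fbln5* were lower against either, at -0.66, -0.19 and -0.29 against the second cortex, where each interval includes 0. These 2 subsets of Control spots were compared after the values had been seen.

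**Figure D4:**
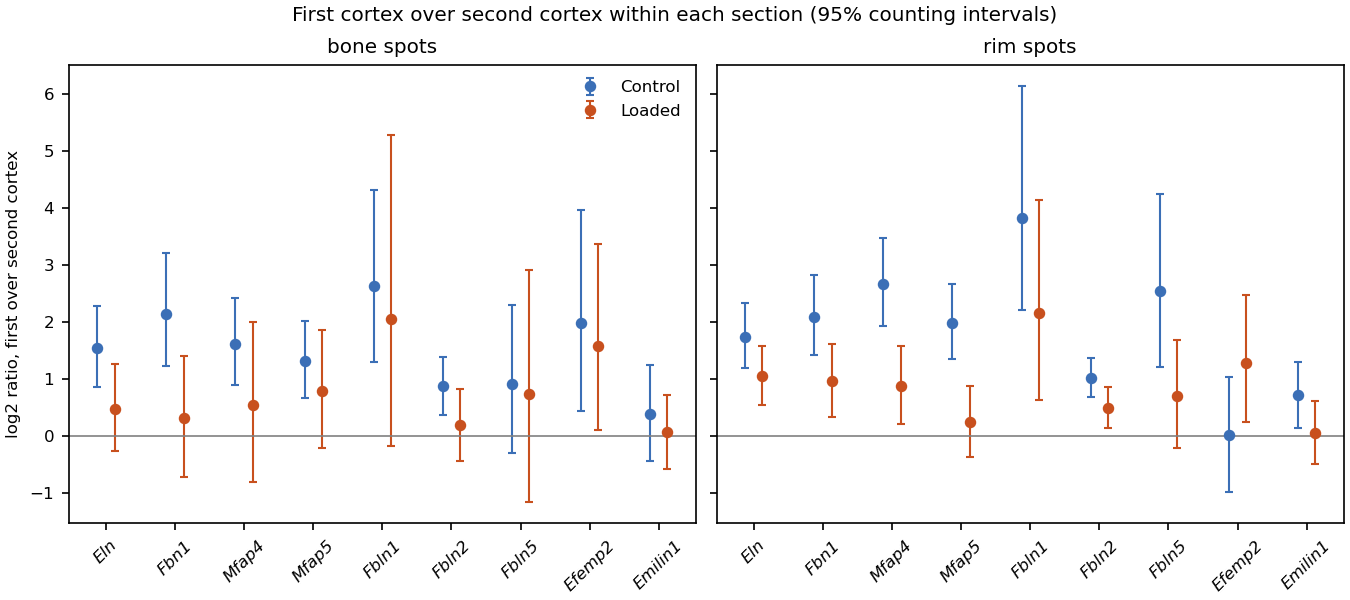
Points give the log2 ratio of the first over the second cortex within the Control (blue) and Loaded (orange) section for each gene, in bone spots (left) and rim spots (right), with exact 95% counting intervals. In bone the Control points lie above the Loaded points for all 9 genes, from 0.38 for *Emilin1* to 2.62 for *Fbln1*.

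The rim was further split into the spots on the marrow side and on the outer side of the nearest cortex, a split added after the values had been seen. Of the 9 genes, 8 had a higher level on the outer side in both sections. No share of all genes was computed for this split, so the count has no background. The intervals of *Fbln1*, *Fbln5* and *Mfap5* in Control and of *Fbln1* in Loaded include 0. *Fbln2* stood at 1.49 outside and 0.775 on the marrow side in Control, and at 1.20 and 0.371 in Loaded. *Mfap4* stood at 0.677 and 0.176 in Control and at 0.373 and 0.144 in Loaded, and *Efemp2* had 35 and 3 UMIs in Control and 40 and 4 in Loaded. *Emilin1* had the opposite order, with 0.343 outside and 0.673 on the marrow side in Control, a log2 ratio of -0.97 (-1.52 to -0.41), and 0.355 and 0.433 in Loaded (-0.29, -0.85 to 0.29). Erythroid genes, which mark marrow, made up 6.28% of marrow-side UMIs in Control and 6.31% in Loaded, and 0.369% and 0.603% outside.

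Farther from bone the sections differed in shape. The summed level of the 9 genes in Control was 4.34 in bone and 4.43 in the rim, was 1.94 at 0.25 to 0.5 mm, and was 1.77, 1.34 and 1.84 at 0.5 to 1 mm, 1 to 2 mm and over 2 mm. In Loaded it went from 3.00 in bone and 3.19 in the rim through 2.44, 2.40 and 2.25 to 1.81 at over 2 mm. The Control section reached 4.53 mm from bone and the Loaded section 2.51 mm, so the remaining spots did not cover the same tissue. At over 2 mm, *Emilin1* had an interval of 0.434 to 0.573 in Control and of 0.202 to 0.438 in Loaded.

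To describe the tissue in which each gene was counted, the spots outside bone with the highest share of a marker list (5% of the spots of a section) were set against all other spots outside bone. A spot can be rich in several lists, so these sets overlap. Among the 15 lists, *Eln* had its largest ratio in smooth muscle-rich spots, at 1.08 against 0.223 normalized counts per spot in Control and 1.68 against 0.366 in Loaded, log2 ratios of 2.27 (1.99 to 2.54) and 2.20 (1.93 to 2.46). In Control it was nearly as high in fibroblast-rich spots (2.16). Of the 9 genes, all had a log2 ratio above 0 in smooth muscle-rich, tendon-rich, endothelium-rich and macrophage-rich spots of both sections, and all but *Emilin1* in Loaded had one in fibroblast-rich spots. No share of all genes was computed for any marker-rich set, so these counts have no background. Some of the intervals include 0, as for *Emilin1* in endothelium-rich Control spots (0.05) and *Fbn1* in smooth muscle-rich Loaded spots (0.09). The median depth of these sets ranged from 1592 UMIs (tendon-rich, Control) to 6876 UMIs (endothelium-rich, Loaded), against 2289 and 2638 over all spots kept. *Mfap4* had the highest ratio of the 9 genes in tendon-rich spots, at 0.626 in both sections against 0.164 and 0.199 elsewhere, followed by *Fbln1* with log2 ratios of 1.80 and 1.41. In Control, however, both genes were raised further in spots rich in Schwann cell and nerve genes (2.70 and 2.25) and in macrophage-rich spots (2.36 and 1.97), where *Mfap4* in Loaded stood at 0.94 and 0.55 and *Fbln1* at 1.91 and 1.63. These 2 Control sets reached down to list shares of 0.0293% and 0.0522%, below those of the whole Control rim (0.0853% and 0.0709%). Of their spots, 42 of 62 and 38 of 88 lay in the rim. Their median depths were 6318 and 6611.5 UMIs, against 2289 over all Control spots kept. In fibroblast-rich spots the log2 ratio of *Fbn1* was 2.11 and 1.41 and that of *Mfap5* was 1.94 and 0.82.

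*Emilin1* was raised in several sets of spots rich in skeletal cell genes, as were *Efemp2* in Control and *Fbln1* in osteoclast-rich spots. In osteoblast-rich spots it stood at 1.46 against 0.279 in Control and at 0.625 against 0.266 in Loaded, log2 ratios of 2.39 (1.98 to 2.77) and 1.23 (0.73 to 1.70). Of these spots, 2 of 88 in Control and 32 of 64 in Loaded lay in the rim, so the sets came from different places in the sections. The list made up at least 7.26% of their UMIs in Control and 3.54% in Loaded. Whether the Control set lay in bone beyond the fixator pins was not tested. In Control, *Emilin1* was raised as far in chondrocyte-rich spots (2.60, 2.11 to 3.05) and osteoclast-rich spots (2.37, 2.01 to 2.71), and in the 20 osteocyte-rich spots (1.72, 0.76 to 2.54). In Loaded, it was at 0.93 (0.41 to 1.42) in osteoclast-rich spots and at -0.24 (-3.29 to 1.63) in the 6 osteocyte-rich spots, which held 2 of its UMIs. The gene was also above 0 in tendon-rich (1.05 and 0.69) and erythroid-rich spots (0.82 and 0.68) of Control and Loaded. In plasma cell-rich spots it stood at -1.09 and 0.76. *Efemp2* was the other member raised in osteoblast-rich spots of Control, at 2.28 (1.53 to 2.95), with 0.57 in Loaded and an interval that includes 0. In Control it was also at 2.88 in osteocyte-rich, 1.82 in chondrocyte-rich and 1.73 in osteoclast-rich spots, with intervals above 0. In Loaded, *Efemp2* stood at -0.03 in osteocyte-rich and 0.55 in osteoclast-rich spots, with intervals that include 0. *Fbln1* in osteoclast-rich spots stood at 1.49 (0.55 to 2.31) in Control and 1.95 (1.16 to 2.67) in Loaded, and *Mfap4* at 1.25 and 0.13. *Fbln2* was 2.37 log2 units lower in osteoblast-rich than in other Control spots, with 6 UMIs in the former. In Loaded, its ratio was -0.21 with an interval that includes 0 (-0.69 to 0.23). In granulocyte-rich spots *Emilin1* had ratios of 1.30 and 0.47, while *Eln*, *Fbn1*, *Fbln1*, *Fbln2*, *Efemp2*, *Mfap4* and *Mfap5* were below 0 in both sections (*Fbln2* at -1.95 and -1.90). Skeletal muscle-rich spots, with at least 10% of their UMIs from the muscle list, had less *Emilin1* in both sections (-2.07 and -1.19) but less *Mfap4* only in Control (-2.13, against 0.00 in Loaded).

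**Figure D5:**
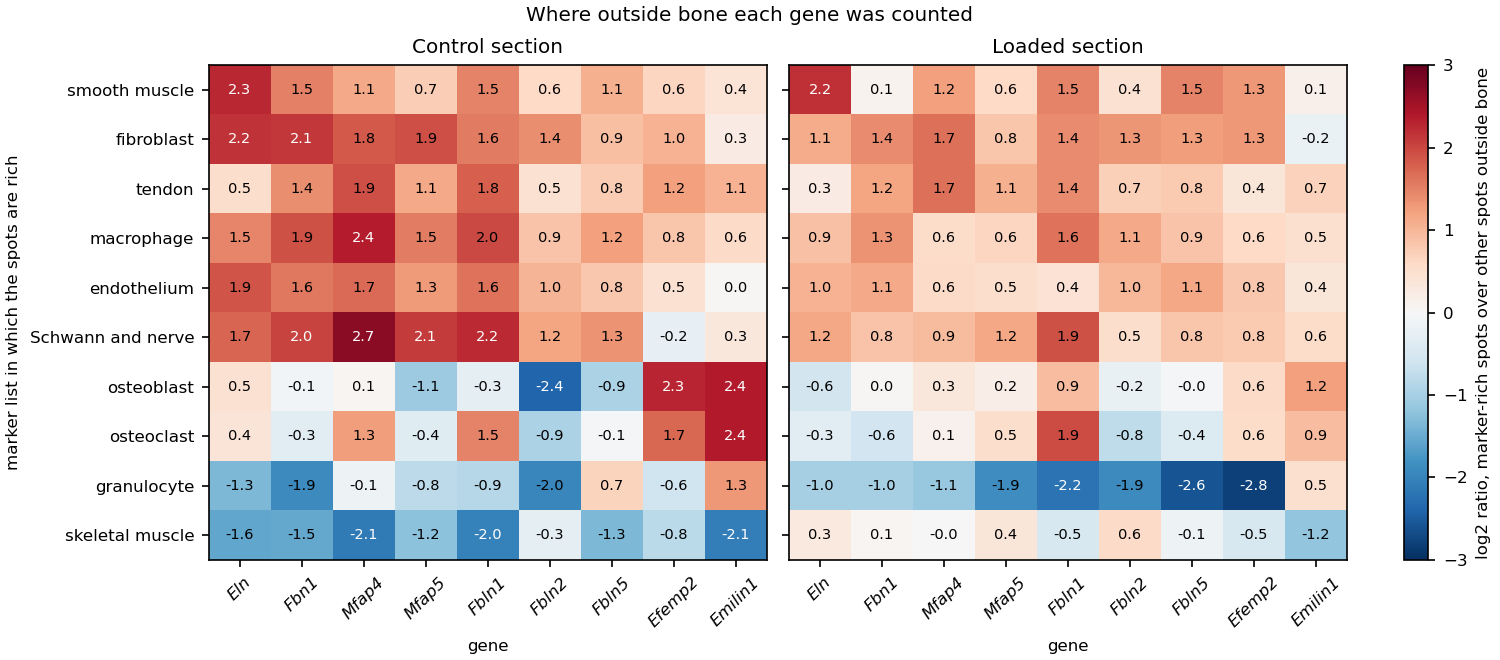
Each cell gives the log2 ratio of a gene between spots rich in a marker list and all other spots outside bone, for Control (left) and Loaded (right), with red for higher and blue for lower. *Eln* peaks in smooth muscle-rich spots (2.27 and 2.20), and *Emilin1* is raised in osteoblast-rich (2.39 and 1.23) and osteoclast-rich spots (2.37 and 0.93) of both sections. *Fbln1* is also raised in osteoclast-rich spots (1.49 and 1.95).

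Deep spots could carry a gene by depth alone, so every spot was also thinned to 1000 UMIs before spots with a UMI were counted. *Mfap4* was then found in 16.8% of Control bone spots (10.8 to 24.3) and 3.82% of Loaded bone spots (1.25 to 8.68), against 2.73% and 5.58% in skeletal muscle-rich spots, so that the Loaded bone share was not above the muscle background. *Emilin1* was found in 10.7% of Control (5.97 to 17.3) and 20.6% of Loaded bone spots (14.0 to 28.6), against 4.78% and 4.99% in muscle-rich spots. For *Eln* the shares were 19.8% and 15.3%, against 5.69% and 7.49%. Thinning left out 15 Loaded and 0 Control bone spots, and the median depths of the spots kept were 3478 UMIs in Control bone, 2769 in Loaded bone, and 5657 and 3571 in muscle-rich spots. Without thinning the shares of *Mfap4* were 42.7% and 13.0%, and those of *Emilin1* 33.6% and 38.4%.

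A list of 26 other genes of elastic fibers, microfibrils and their TGF-β partners was read over the same regions, and all 26 were in the files. Unlike the members, these genes were not compared with each Control cortex alone. Whether their bone ratios depend on the first Control cortex was therefore not tested. In bone, 22 had at least 10 UMIs, of which 5 were at least 2-fold lower in Loaded (8.11% of all genes) and 0 at least 2-fold higher (13.2% of all genes), with a median log2 ratio of -0.36 against 0.12 for all genes. *Ltbp4*, which binds latent TGF-β to microfibrils and aids elastin assembly, had 342 UMIs in Control bone and 98 in Loaded bone, a log2 ratio of -1.38 (-1.72 to -1.05), and the ligand *Tgfb3* had 183 and 59 UMIs (-1.21, -1.65 to -0.78). The cross-linking enzyme *Loxl1*, at 161 and 67 UMIs, had a ratio of -0.84, and the macrophage elastase *Mmp12*, at 67 and 28 UMIs, had -0.83, both with intervals below 0. The ligand *Tgfb1* was higher in Loaded bone, at 132 against 94 UMIs (0.92, 0.52 to 1.31), as was *Elane*, the neutrophil elastase, at 55 against 37 UMIs (1.00, 0.37 to 1.64). Granulocyte genes were also higher there, at 0.425% against 0.104% of UMIs, and their part in the *Elane* value was not tested. *Lox*, the founding lysyl oxidase, had 76 and 73 UMIs and a ratio of 0.49 (0.00 to 0.97). *Fbln7*, *Adamts10*, *Ltbp1*, *Ltbp3*, *Loxl2*, *Loxl3*, *Adamtsl4* and the microfibril protein *Mfap2* lay between -0.50 and 0.15 with intervals that include 0.

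Within the Control section, all 25 list genes with enough UMIs had a higher level in bone than in the remaining spots (46.8% of all genes). Of these, 14 were at least 2-fold higher (12.7% of all genes). The well-counted ones were led by *Loxl1* at 2.01, *Mmp12* at 1.98, *Ltbp1* at 1.84, *Adamts10* at 1.74 and *Ltbp4* at 1.66. In the Loaded section, 19 of 25 were higher in bone (55.2% of all genes), 7 at least 2-fold (9.84% of all genes). Among those with at least 50 UMIs, the highest were *Lox* at 2.50 (2.04 to 2.95), *Tgfb1* at 1.36, *Mfap2* at 1.08 and *Ltbp1* at 1.05. The others of the 7 rested on 3 to 6 bone UMIs each. *Adamtsl4* stood at -0.61 and *Ltbp4* at -0.18. In the rim against the remaining spots, 10 list genes in Control and 3 in Loaded were at least 2-fold higher, where 9.57% and 4.63% of all genes were. Loaded over Control in the rim ranged from -1.13 for *Fbln7* to 1.32 for *Elane* among the genes with at least 50 UMIs, and in the remaining spots from -0.78 for *Fbln7* and -0.72 for *Lox* to 1.02 for *Mmp12*. *Tgfb2*, *Ltbp2* and *Emilin2* lay between -0.35 and 0.11 in the rim with intervals that include 0, *Efemp1* stood at 0.61 in the remaining spots (0.15 to 1.07), and *Thsd4* reached 50 UMIs in the remaining spots alone (-0.52).

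The members' levels were finally compared with those of other genes over the 24 blocks, as a description, since the blocks share 2 sections and their depth. Over the 36 pairs of members, Pearson's r ranged from -0.02 to 0.86 with a median of 0.52. *Eln* and *Fbn1* were the closest pair (0.86), followed by *Eln* and *Mfap4* (0.84), and *Emilin1* and *Fbln5* the most distant. Among 10023 genes with at least 100 UMIs, *Eln* was most like *Col14a1* (0.90), *Cygb* (0.90) and *Igfbp7* (0.87), *Fbn1* most like *Rnase4* (0.92), *Fn1* (0.91) and *Fstl1* (0.90), *Mfap4* most like *Fzd1* (0.88), *Col14a1* (0.87) and *Mgp* (0.87), and *Mfap5* most like *Cygb* (0.91), *Il33* (0.89) and *Parva* (0.87). *Emilin1* was most like the collagen genes *Col5a1* (0.89) and *Col1a2* (0.89) and *Id3* (0.89). Because *Col1a2* dominates the osteoblast list, this likeness and the *Emilin1* ratio in osteoblast-rich spots are not separate observations. For *Fbln2* the nearest genes were *Lbp*, *Cilp* and *Rnase4* (0.83 to 0.88), for *Fbln5* *Il6st*, *Gpc6* and *Emp2* (0.85 to 0.89), for *Fbln1* *Adamtsl3*, *Calhm2* and *Klf7* (0.82 to 0.84), and for *Efemp2* *Plekhg5*, *Ecm1* and *Rasa3* (0.76 to 0.83).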

How the data were processed

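The authors ran Space Ranger 2.0.0 on the probe libraries of the 2 sections, and the deposited values are its raw UMI counts for every gene in every spot, not normalized, with spot positions. The build in the submitters' processing notes is mm10, and these notes also name R 4.3.1 and Seurat. Of the 19465 genes, 19451 (99.9%) were found in GENCODE M21 (GRCm38), which gave the coordinates. Bone spots came from the barcodes in the study's region list.

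Spots with fewer than 500 UMIs or 250 genes were left out. Size factors were computed over all spots kept with scran 1.30.0 (R 4.3.3), as the authors did for the bone spots. The authors tested spots with DESeq2. Spots of 1 section are not replicates, so no test was run here, and exact conditional binomial intervals of ratios, Poisson intervals of levels and binomial intervals of shares were used instead (scipy 1.17.1, numpy 2.4.6, pandas 2.3.3, matplotlib 3.10.9, run under Python 3.11.15). Where a gene had no UMI in a region, 3 UMIs stood in its place. All-gene shares used genes with at least 10 UMIs over both regions. Bone spots were split into 2 cortices by a pair of parallel lines fitted to their positions. The computation was tested on simulated counts with known ratios.

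The members, the 26 pathway genes (named where they had at least 50 UMIs over the regions compared), the 15 marker lists and the likeness rule (3 genes per member, log2 of level + 0.01) were chosen with earlier results of these data known. *Hba-a1* of the erythroid list was not found in the files. Marker-rich spots needed at least 5 UMIs of the list. Spots of the 2 sections share 557 barcodes, which name positions of the slide grid. Alternatives were other scalings (TMM of edgeR 4.0.16, library totals as such, less the muscle genes or less the top 20 genes), equal weight per spot, no spot filter, a muscle share below 5%, rims of 0.15 and 0.4 mm, remaining spots within 1 mm, each block left out, other UMI limits, thinning to 500 UMIs or none, and a pseudocount of 0.05.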

Additional observations from a re-analysis of the deposited data

Results flagged for a closer look

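For 3 members the Loaded over Control log2 ratio had opposite signs close to bone and in the rest of the section, with every interval off 0. For *Fbn1* it was -0.8013 in bone, -0.4807 in the rim and 0.6201 in the remaining spots. For *Mfap4* it was -1.814 in bone, -0.8878 in the rim and 0.9979 in the remaining spots. For *Mfap5* it was -1.109 in bone, -0.7579 in the rim and 0.8536 in the remaining spots. The difference between regions was not tested, because each group has 1 section. Against the second Control cortex alone, the rim ratios of *Fbn1*, *Mfap4* and *Mfap5* were 1.04, 1.14 and 0.67, so the signs in the rim rest on the first Control cortex. The bone ratios against it were 0.80 for *Fbn1*, -0.66 for *Mfap4* and -0.19 for *Mfap5*, each with an interval that includes 0. In the remaining spots, *Fbn1* was below 0 in 2 of 19 settings (lowest value -0.42), and *Mfap4* and *Mfap5* were above 0 in all 19. The lowest value of *Mfap5* was 0.17, with a muscle share below 5% (11 Loaded and 27 Control UMIs). In spots outside bone that were not skeletal muscle-rich, *Mfap4* stood at 0.238 in Loaded and 0.427 in Control. *Mfap5* stood at 0.222 and 0.348 there, and *Fbn1* at 0.212 and 0.339. In the muscle-rich spots all of these genes were higher in Loaded. The rim ratio of *Mfap4* was also above 0 (0.23) without Control block 1.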

How the results depend on the processing

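No paired analysis was possible because each group has 1 section and no result comes from a test. The median of all genes moved by more than 0.1 under some scalings, in bone by -0.16 with TMM and -0.11 without muscle genes, in the remaining spots by 0.38 with library totals, and in Control bone over remaining by 0.62 with library totals. Library totals gave a members' median of 2.141 in Control bone over remaining and 1.893 in Control rim over remaining, and totals without muscle genes gave 1.842 in the former. With a muscle share below 5%, which left 15 Control and 22 Loaded bone spots, the median was -1.666 for Loaded over Control rim and -0.08011 for Loaded rim over remaining. With these spots 6 members were at least 2-fold lower in Loaded bone. The share of all genes was not computed for so few spots, so this count has no background and is not read as a result. A rim of 0.4 mm gave 1.097 in Control. With every spot weighted equally, the median of Loaded over Control in the remaining spots was -0.02, and with a muscle share below 5% it was 0.10. At a limit of 1 UMI, 13.18% of all genes were at least 2-fold lower in Loaded bone. Leaving out blocks gave a range of -0.7813 to 0.0129 for the Loaded over Control rim median, of 1.026 to 1.563 for Control bone over remaining, of 2 to 5 members at least 2-fold lower in Loaded bone, and of -2.637 to 0.1549 for *Fbln1* in bone. The share of all genes was not computed without a block either. The highest rim median, the lowest Control bone median and the highest *Fbln1* value all came without Control block 1. In analyses chosen after seeing the data, the second Control cortex alone gave medians of 0.3917 in bone and 0.9807 in the rim, 0 members at least 2-fold lower, and *Fbln1* at 0.3917 and 1.914, while the first alone gave 5 members. The cause of these moves was not tested. Of all medians, 63 of 71 values outside the block analyses and 38 of 40 within them were classed as unmoved. These lay inside the counting interval of the gene at the main median, since a median has no interval of its own here. Of single-gene ratios, 511 were unmoved, 126 moved and 2 reversed outside the block analyses, and 311, 48 and 1 within them. Among results of other kinds, 98 moved and 23 did not outside the block analyses, and 1 moved and 7 did not within them. Loaded over Control in bone stayed below 0 for *Mfap4* (-2.28 to -0.66) and above 0 for *Emilin1* (0.60 to 1.31) in all 19 settings run for it. Depth limits *Fbln1*, *Fbln5* and *Efemp2* most, with 12 to 50 UMIs in a bone region.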
